A study of Mus musculus with 61 samples.

Results

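The genes described here encode the subunits of NMDA and AMPA receptors, the ion channels that carry most fast excitatory transmission in the brain. They were Grin1, Grin2a, Grin2b, Grin2c, Grin2d and Grin3a (NMDA) and Gria1, Gria2, Gria3 and Gria4 (AMPA). Array probes were assigned to these genes through the RefSeq accession printed with each probe, and the probe with the highest mean signal stood for the gene. A probe was found for 9 of the 10 genes, 5 NMDA and 4 AMPA subunits, out of 16358 genes that RefSeq accessions named on the array. No probe was matched to Grin3a, which is not analysed here. The 9 genes had 15 probes in all.

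The samples were 61 fractions of 6 brains. They came from inbred C57BL/6J males at 8 weeks of age, for which no treatment or genetic change is given. Each brain was perfused with RNAlater, which preserves RNA, frozen in embedding medium and cut along its whole length into fractions 1 mm thick, and each fraction was hybridized to 1 array. Series C (13 fractions) and Co (16) were cut coronally from the back of the brain to the front, S (9) and So (10) sagittally from left to right, and H (6) and Ho (7) horizontally from top to bottom. Each series was 1 mouse, and So, Co and Ho were cut slightly obliquely. The study matched 28 fractions of S, C and H to 28 of So, Co and Ho by correlation on these same arrays, and So1, Co1, Co13, Co16 and Ho1 remained without a partner. Each of the 28 pairs was a position with 1 array from each of 2 mice. Those 2 arrays were its replicates in every test below. The p-values rest on the spread within pairs, pooled over all 28 pairs of the coronal, sagittal and horizontal series. Positions of a plane come from the same 2 mice, cut at slightly different angles, and are not independent replicates.

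An NMDA receptor is a tetramer that needs the GluN1 subunit, the product of Grin1, which binds glycine or D-serine. The other subunits are usually GluN2A to GluN2D (Grin2a to Grin2d), which bind glutamate and set how strongly magnesium blocks the channel and how slowly it closes. In the adult mouse, GluN2B is known for the forebrain, GluN2A is widespread, GluN2C is known for cerebellar granule cells and GluN2D for the diencephalon and brainstem. AMPA receptors are tetramers of GluA1 to GluA4 (Gria1 to Gria4), and a receptor that holds edited GluA2 passes little calcium. GluA4 is known for the cerebellum and for fast brainstem synapses. Because a fraction holds all cells of its slab, fewer cells of a type and less RNA per cell cannot be told apart in any value below.

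Values are log2 intensities, that is the log2 of a probe's processed signal minus that of the array's 75th percentile, which was between 737 and 1919 signal units. A value of 0 therefore equals the 75th percentile of that array, and a difference of 1 is a doubling. Probes differ in brightness, so levels of different genes were not set against each other. All 9 probes were well above background on all 61 arrays, and none was saturated. Along the coronal series, marker genes followed the cutting order from back to front that the study gives. In the caudal coronal fractions the summed scaled signal of 3 cerebellar granule cell markers was 26.2 to 125, against 2.22 to 13.2 in the rostral ones, and that of 4 hindbrain markers was 1.99 to 6.09 against 0.0314 to 0.0780. Markers of cortex ran the other way, at 0.303 to 0.506 caudally and 0.915 to 2.65 rostrally. Arrays lay on 16 slides, up to 4 on each, scanned on 5 days, and in C each coronal zone was a slide of its own, so that zone and slide can be separated only partly.

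The test for variation over the 28 matched positions called all 9 subunits. This was the moderated F test of limma, adjusted over all detected probes, which called 9 of 9, against a background of 61.2% of all probes. With fractions paired by their own number in place of the study's matching, Gria1 passed neither this test (adjusted p = 0.167) nor that within the coronal positions (0.403). Gria4 had the highest F (31.7, adjusted p = 1.69e-13), followed by Grin2b (18.0, 1.12e-10) and Gria2 (11.0, 2.91e-08). Grin1, the obligatory NMDA subunit, had the lowest (4.39, 2.60e-04). Within the coronal positions 8 of 9 were called, the exception being Grin2d (adjusted p = 1), against 47% of all probes. Within the horizontal positions 2 of 9 were called, Grin2a (0.0104) and Gria4 (6.16e-04), against 11.9%. With the mouse as a block 6 were called there, and with own-number pairing 0. Within the sagittal positions 3 of 9 were called, Grin2a (0.0322), Grin2b (0.0122) and Gria4 (0.00347), against 11.1%. Over all 61 fractions the log2 intensity of Grin2b spanned 3.98, a 15.8-fold range from C3 to S1, while Gria1 spanned 1.41 and Grin1 1.53.

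**Figure D1:**
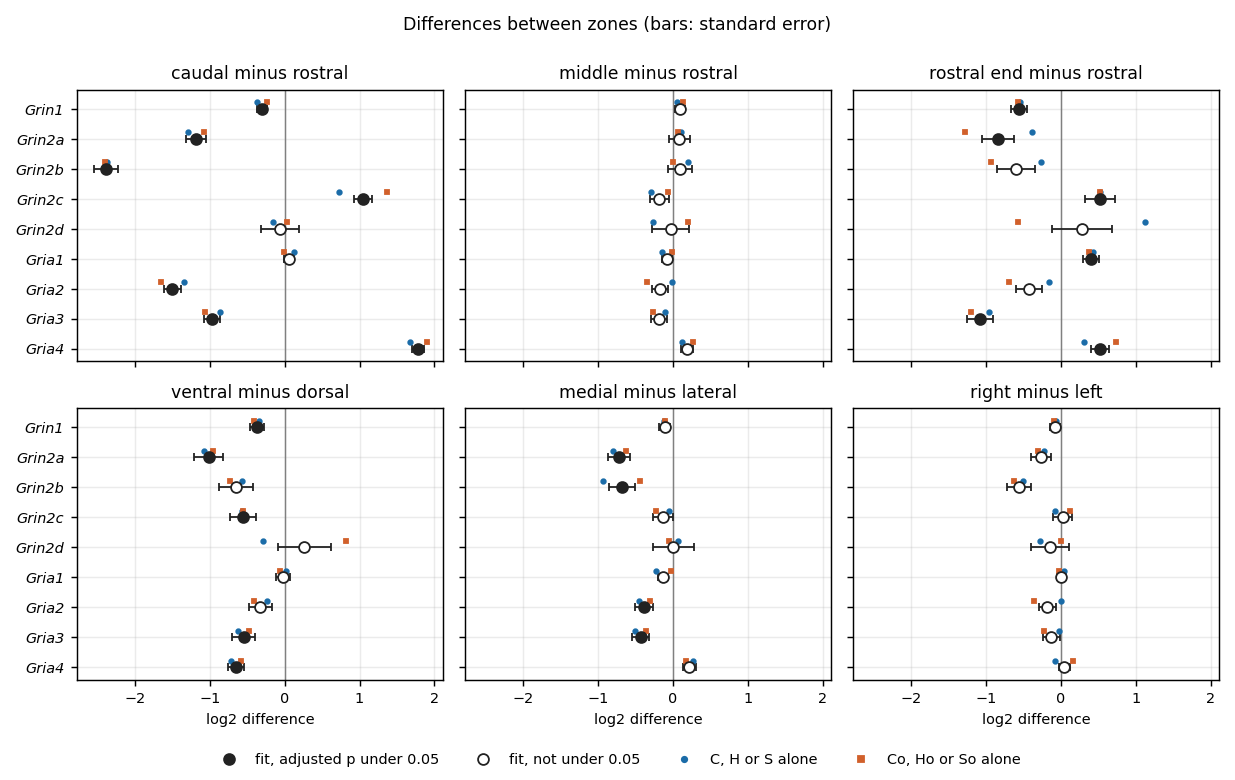
Differences in log2 intensity of the 9 subunits between zones of each plane. Large points are the estimates over 2 mice with standard error bars, filled where the adjusted p of limma was under 0.05, small points are each mouse alone, and the contrasts run from -2.39 for Grin2b to 1.78 for Gria4, both caudal minus rostral.

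The main axis was caudal to rostral. Caudal positions (c1 to c4, the cerebellum and hindbrain end) were compared with rostral ones (c9 to c12), each over 4 pairs of fractions. Lower caudally were 5 of 9 subunits, Grin1, Grin2a, Grin2b, Gria2 and Gria3, against 20.2% of all probes. Higher caudally were 2 of 9, Grin2c and Gria4, against 29% of all probes. Grin2d and Gria1 did not pass the test, with differences of -0.07 (SE 0.25, adjusted p = 0.856) and 0.06 (SE 0.06, 0.482). The median over all probes was 0.13.

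Sequence before a listed transcript start of 4 of these genes is shown as context for the opposite profiles, since Grin2c and Gria4 were higher caudally and Grin1 and Gria2 lower. The RefSeq promoter table (GRCm38.p6) held 5 of the 10 genes, and for each the 250 bases before the listed start were read 5′ to 3′. All 4 lie on the minus strand, at chr11:115267244-115267493 (Grin2c), chr9:4796235-4796484 (Gria4), chr2:25319188-25319437 (Grin1) and chr3:80802836-80803085 (Gria2). The window of Gria2 lies inside the annotated gene and that of Grin2c overlaps its gene in part, so that these need not be the starts used in brain. Motifs were searched on both strands and are in capitals. GGGCGG is the GC box and CCAAT the site known as the CCAAT box. The letters CACGTG make up an E-box. The last, GGACAGC, is part of the RE1 element that the repressor REST binds.
Grin2c: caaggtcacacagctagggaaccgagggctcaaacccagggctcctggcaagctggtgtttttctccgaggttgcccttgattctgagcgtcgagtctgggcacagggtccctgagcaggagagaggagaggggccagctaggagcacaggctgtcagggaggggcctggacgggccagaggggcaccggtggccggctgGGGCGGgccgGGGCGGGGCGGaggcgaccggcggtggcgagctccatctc
Gria4: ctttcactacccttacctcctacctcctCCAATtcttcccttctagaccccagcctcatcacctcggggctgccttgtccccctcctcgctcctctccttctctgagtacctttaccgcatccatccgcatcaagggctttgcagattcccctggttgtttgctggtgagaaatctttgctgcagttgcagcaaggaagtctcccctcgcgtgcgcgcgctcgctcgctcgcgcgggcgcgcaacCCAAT
Grin1: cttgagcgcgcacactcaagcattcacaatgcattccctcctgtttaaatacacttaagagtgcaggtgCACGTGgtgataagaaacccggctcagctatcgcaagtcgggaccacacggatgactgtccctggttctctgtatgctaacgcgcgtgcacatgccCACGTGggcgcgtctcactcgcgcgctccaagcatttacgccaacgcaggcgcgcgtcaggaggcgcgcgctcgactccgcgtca
Gria2: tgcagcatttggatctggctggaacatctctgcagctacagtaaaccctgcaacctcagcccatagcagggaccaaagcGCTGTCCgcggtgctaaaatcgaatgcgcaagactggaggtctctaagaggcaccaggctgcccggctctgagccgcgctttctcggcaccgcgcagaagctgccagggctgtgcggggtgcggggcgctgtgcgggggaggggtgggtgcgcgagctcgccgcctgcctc
Grin2c had 3 GC boxes, of which the last 2 overlap in part, and 68.8% G and C. Gria4 had 2 CCAAT motifs and Grin1 had 2 E-boxes, each at 58.8% G and C. Gria2 had 1 GGACAGC, read on the opposite strand as GCTGTCC, at 64.8% G and C. Among 32851 promoters of the same length, GGGCGG was in 32.7%, CCAAT in 33.8%, CACGTG in 6.02% and GGACAGC in 5.28%, and the median G and C content was 52.4%. These matches are letters in a window and were not tested against expression.

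Grin2b, which encodes the GluN2B subunit, had the largest fall. In mouse C its log2 intensity was -4.38, -4.89, -4.96 and -4.89 in C1 to C4, then -2.38, -2.25, -2.04 and -2.15 in C5 to C8, and -2.20, -2.18, -2.25 and -2.99 in C9 to C12. In mouse Co it was -3.75, -4.63, -4.52 and -4.43 in Co2 to Co5, then -2.56, -1.77, -1.62 and -1.74 in Co6 to Co9, and -1.97, -1.81, -1.75 and -2.18 in Co10, Co11, Co12 and Co14. Caudal and rostral values did not overlap in either mouse, and the break lay between c4 and c5. The difference was -2.39 (SE 0.16), 5.25-fold, with -2.38 in C and -2.41 in Co (limma, adjusted p = 8.01e-14). A second Grin2b probe gave -2.25.

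Grin2a, for GluN2A, fell caudally by a smaller amount. Its values in C1 to C4 were -5.08, -4.93, -4.97 and -5.14, against -3.55, -3.48, -3.42 and -4.51 in C9 to C12. In Co2 to Co5 they were -4.63, -4.48, -4.57 and -4.55, against -3.43, -3.37, -3.16 and -3.96 in Co10, Co11, Co12 and Co14. The caudal fractions were all below the rostral ones in both mice. The difference was -1.18 (SE 0.14, adjusted p = 1.34e-08), with -1.29 in C and -1.07 in Co. Grin1 differed by only -0.30 (SE 0.07, 4.78e-04), and its caudal and rostral values overlapped in both mice, since C12 (-1.09) and Co14 (-1.09) were as low as caudal fractions.

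Grin2c, for GluN2C, ran the other way, and its profile was not a simple gradient. In C1 it was 1.86, the lowest value of that mouse, and in C2, C3 and C4 it was 4.04, 4.08 and 4.08, the highest. From C5 to C11 it stayed between 2.40 and 2.90, and it was 3.08 in C12 and 3.30 in C13. In Co the values were 2.76 in Co2, 4.10, 4.08 and 4.17 in Co3 to Co5, and 2.64 in Co6. The highest level was thus held by 3 neighbouring fractions in each mouse, with the most caudal paired fraction much lower. Over all 4 caudal positions the difference from rostral was 1.05 (SE 0.13), 2.06-fold (adjusted p = 2.48e-08), with 0.73 in C and 1.36 in Co, and the 2 zones overlapped because of the first position.

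**Figure D2:**
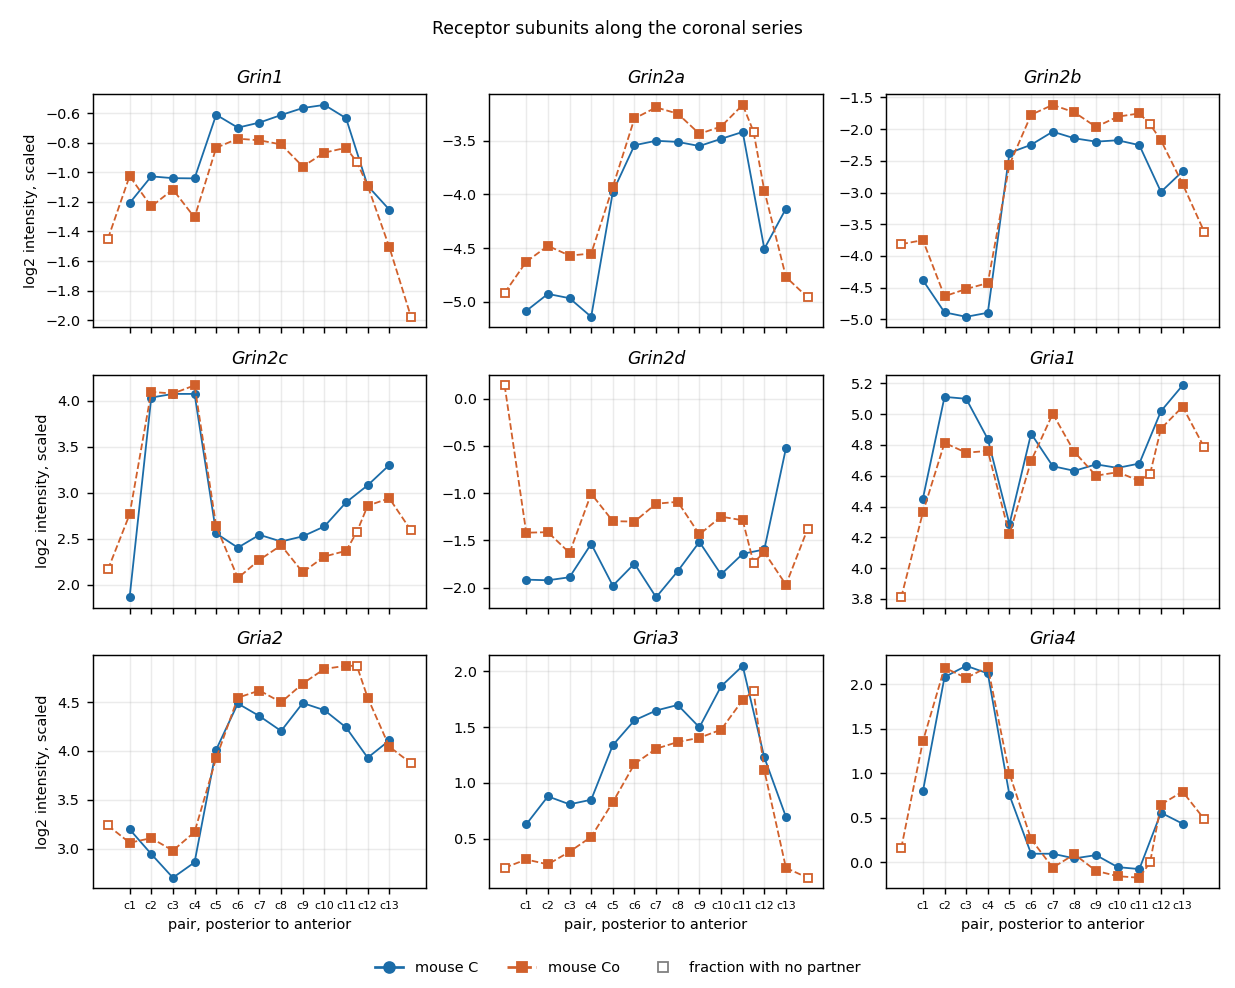
Log2 intensity of the 9 subunits in the coronal fractions, from the back of the brain to the front, with 1 line for mouse C and 1 for mouse Co and open squares for fractions with no partner. Grin2b and Gria2 step up between c4 and c5 in both mice while Grin2c and Gria4 step down, and Gria1 stays between 3.81 and 5.19 throughout.

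Among the AMPA subunits, Gria4 was the one that was higher caudally. Its log2 intensity was 0.80, 2.08, 2.21 and 2.12 in C1 to C4, and 0.08, -0.05, -0.07 and 0.56 in C9 to C12. In Co2 to Co5 it was 1.36, 2.19, 2.07 and 2.19, and in Co10, Co11, Co12 and Co14 it was -0.09, -0.15, -0.17 and 0.65. Every caudal fraction exceeded every rostral one of the same mouse. The difference was 1.78 (SE 0.08), 3.44-fold (adjusted p = 3.46e-18), with 1.67 in C and 1.89 in Co.

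Gria2, for GluA2, which limits calcium entry, was lower caudally. It was 3.20, 2.94, 2.70 and 2.86 in C1 to C4 against 4.49, 4.42, 4.24 and 3.93 in C9 to C12, and 3.06, 3.11, 2.98 and 3.17 in Co2 to Co5 against 4.69, 4.84, 4.87 and 4.55 in Co10, Co11, Co12 and Co14. The zones did not overlap in either mouse. The difference was -1.50 (SE 0.11), 2.83-fold (adjusted p = 6.84e-13), with -1.34 in C and -1.66 in Co. Gria3, for GluA3, went the same way by -0.97 (SE 0.11), 1.95-fold (7.05e-09), also with no overlap. In C1 to C4 Gria3 was 0.63, 0.88, 0.81 and 0.85, and in C9 to C12 it was 1.50, 1.86, 2.05 and 1.23.

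Gria1, for GluA1, had no net caudal to rostral difference, yet it was not flat. It rose from 4.45 in C1 to 5.11 in C2 and from 4.36 in Co2 to 4.81 in Co3, and it fell from 4.84 in C4 to 4.29 in C5 and from 4.76 in Co5 to 4.22 in Co6. From c6 forward it lay between 4.57 and 5.19 in both mice among the paired fractions.

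Steps between neighbouring positions, chosen for testing after the profiles had been seen, located the changes. Of 225 steps of the 9 subunits over 25 neighbouring positions, 15 were called, and they fell at 5 places. From c4 to c5, the front edge of the caudal zone, 13.2% of all probes changed and so did 7 of the 9 subunits. Grin2b rose by 2.19 (SE 0.32), 4.57-fold (adjusted p = 9.40e-06), and Gria2 by 0.96 (0.00272). Grin2a rose by 0.89 (0.0264) and Grin1 by 0.45 (0.0247). Grin2c fell by 1.53 (SE 0.25), 2.88-fold (4.98e-05), Gria4 fell by 1.28 (4.97e-07) and Gria1 fell by 0.55 (0.00335). From c5 to c6, where 0.37% of probes changed, Gria4 fell by another 0.70 (0.0398).

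The most caudal position differed from its neighbour. From c1 to c2 Grin2c rose by 1.76 (SE 0.25), 3.38-fold (limma, adjusted p = 2.93e-05), Gria4 by 1.05 (5.68e-05) and Gria1 by 0.56 (0.00596), against 7.33% of all probes changed. These 2 fractions of each mouse shared a slide, and on it the rise of Grin2c was 2.18 in C and 1.33 in Co. Grin2b did not pass the test at this step, with -0.51 in C and -0.88 in Co. Granule cell marker sums over the 8 caudal fractions ran from 26.2 to 125 and those of 3 Purkinje cell markers from 22.1 to 127. Their part in the step was not tested.

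Slides limit how far the caudal difference can be assigned to position. With the slide as a fixed term, which leaves 16 residual degrees of freedom, the difference was -2.10 for Grin2b (adjusted p = 0.00309), -1.24 for Gria2 (0.0461) and 1.83 for Gria4 (0.00116), and these 3 stayed past the threshold. Grin2c, at 1.37 (0.0535), Gria3, at -0.86 (0.0561), Grin2a, at -0.80 (0.280), and Grin1, at -0.39 (0.306), no longer passed. With the slide as a random term, at an estimated correlation of 0.541 within slides, the same 7 calls were made. No slide held both caudal and rostral positions. On the slide of Co that held caudal and middle fractions, Co5 was compared with the mean of Co6 to Co8. The difference was -2.44 for Grin2b, -1.08 for Grin2a, -1.19 for Gria2, -0.51 for Grin1 and -0.59 for Gria3. For Grin2c and Gria4 it was 1.84 and 1.79.

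Between the middle of the brain and the rostral zone the subunits changed little. None of the 9 passed the test for middle (c5 to c8) minus rostral, against 7.31% of all probes higher and 6.5% lower. Gria4, at 0.19 (limma, adjusted p = 0.110), was the only one with an unadjusted p under 0.05 (0.0208). With the mouse as a block Gria3 passed, at -0.18 (0.0335).

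At the rostral end (c13, in the olfactory bulb by its markers) the picture changed again. The summed signal of 4 olfactory bulb markers there was 81.8 and 91.8, against 0.850 to 64.2 in the rostral zone. Lower than in the rostral zone were 3 subunits, Grin1 by -0.56 (SE 0.11, adjusted p = 1.75e-04), Grin2a by -0.84 (SE 0.22, 0.00332) and Gria3 by -1.08 (SE 0.17, 1.05e-05), against 15.2% of all probes. Higher were Gria1 by 0.40 (SE 0.10, 0.00285), Gria4 by 0.52 (SE 0.12, 0.00163) and Grin2c by 0.52 (SE 0.20, 0.0463), against 14.2%. Grin2b (-0.60, 0.0760) and Gria2 (-0.43, 0.0651) did not pass, but did with the mouse as a block (0.00340 and 0.0172). The call of Gria1 was lost without C13 and those of Gria4 and Grin2a without Co15, while over the 62 fits that left out 1 array or mouse the difference of Gria1 stayed at 0.33 to 0.47. The call of Grin2c was lost in 28 of those fits and in 7 of 13 other settings, among them scaling to the median (adjusted p = 0.0557), the authors' table (0.0551) and normexp with quantile normalization (0.164). The rostral end difference in C and Co was -0.39 and -1.29 for Grin2a, -0.54 and -0.57 for Grin1 and -0.97 and -1.20 for Gria3. C13 was also on another slide and scan day than C1 to C12. Endothelium marker sums were 39.5 and 39.9 at the rostral end against 17.3 to 24.1 in the rostral zone, with 1 of 3 markers called higher. Astrocyte sums were 36.9 and 37.9 against 21.2 to 38.4, with 3 of 4 higher, and oligodendrocyte sums 87.8 and 98.8 against 117 to 197, with 3 of 4 lower. Their part was not tested.

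The step into the olfactory end began at c12, where 14.7% of all probes changed from c11. Grin2a fell by 0.94 (limma, adjusted p = 0.0166) and Gria3 by 0.73 (0.0203), and Gria4 rose by 0.73 (0.00132). C11 and C12 shared a slide, and there the differences were -1.09 for Grin2a, -0.82 for Gria3 and 0.63 for Gria4. In Co the drop of Grin2a and Gria3 went on from Co14 to Co15, with -0.81 and -0.87 on 1 slide. In C, whose C12 and C13 lay on different slides, Gria3 fell from 1.23 to 0.69 but Grin2a rose from -4.51 to -4.13. Over both mice the step from c12 to c13 passed for neither gene. It was -0.22 for Grin2a (limma, adjusted p = 0.837) and -0.70 for Gria3 (0.0803). The unpaired Co16, the front tip of that brain, had the lowest Grin1 (-1.98) and Grin2a (-4.96) of its series.

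Because 2 probes on 1 array share its scaling, the change of a subunit against another between zones does not depend on the scaling. Relative to Grin2b, Grin2c was 8.61-fold higher caudally than rostrally in C and 13.6-fold in Co, with no overlap of the zones. Relative to Gria2, Gria4 was 8.10-fold higher caudally in C and 11.7-fold in Co, and Gria1 was 2.76-fold and 3.15-fold higher, again without overlap. Grin2a lost less than Grin2b, so that its level relative to Grin2b rose caudally by 2.12-fold in C and 2.52-fold in Co. Relative to Grin1, which every NMDA receptor needs, the change was -2.01 and -2.18 for Grin2b and -0.92 and -0.84 for Grin2a on the log2 scale. These are descriptions of RNA and carry no test.

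**Figure D3:**
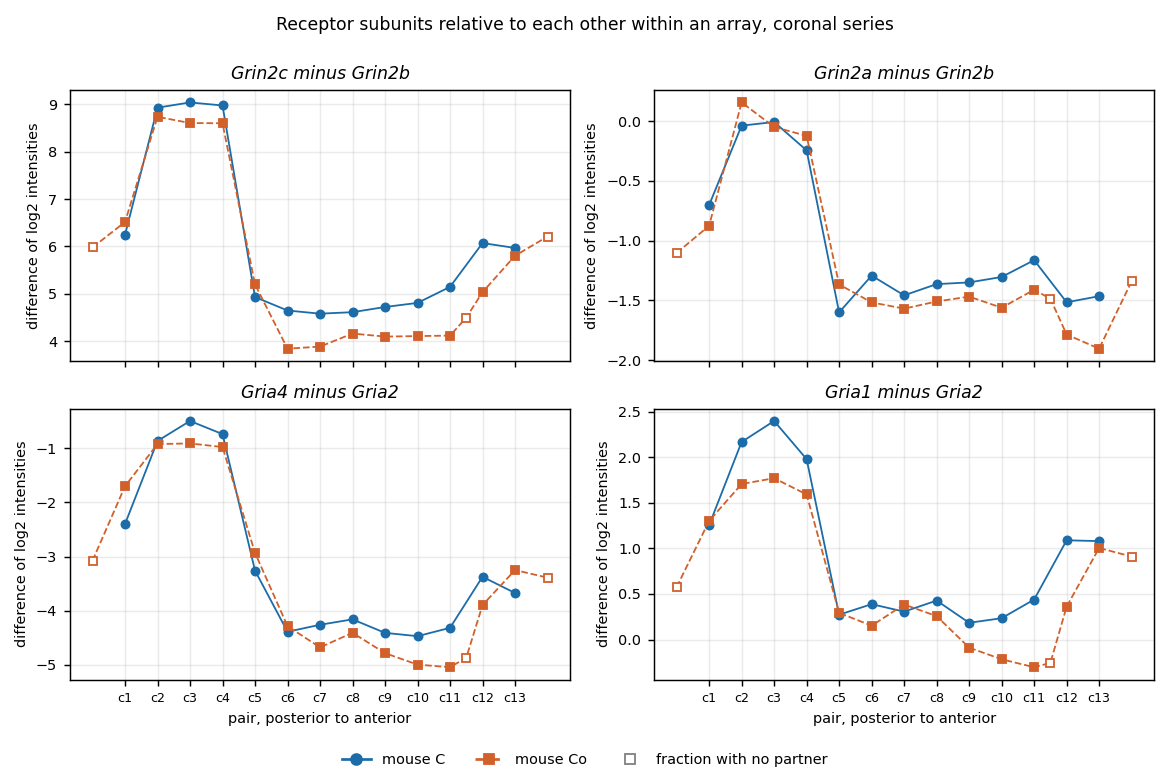
Difference in log2 intensity between 2 subunits on the same array along the coronal fractions of mice C and Co (open squares, fractions with no partner). The difference of Grin2c and Grin2b and that of Gria4 and Gria2 are higher in all caudal fractions than in all rostral fractions of the same mouse, by 3.11 and 3.02 in C on average.

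In the sagittal plane 4 of the subunits that were higher rostrally were lower near the midline. Medial positions (s4 to s6) were compared with lateral ones (s1, s2, s8 and s9). Lower medially were 4 of 9 subunits, Grin2a, Grin2b, Gria2 and Gria3, against 9.09% of all probes, and none was higher, against 10.5%. Grin2a in S1 to S9 was -2.92, -3.01, -3.30, -3.64, -3.87, -3.94, -3.71, -3.17 and -2.95, lowest at the sixth fraction and rising on both sides. Its difference was -0.72 (SE 0.15, adjusted p = 5.30e-04). Grin2b differed by -0.68 (SE 0.17, 0.00424), with -0.93 in S and -0.43 in So, Gria3 by -0.43 (SE 0.12, 0.00766) and Gria2 by -0.38 (SE 0.12, 0.0218). In So the zones of Grin2a, Grin2b and Gria2 overlapped. With fractions paired by their own number, the limma call was lost for Grin2b (adjusted p = 0.145), Gria2 (0.176) and Gria3 (0.198). Gria2 also did not pass with normexp and quantile normalization (-0.28, 0.146).

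S1 and So2, the lateral pair s1, lay on a slide that held no medial fraction. The other lateral fractions shared slides with medial ones, so for them the difference can be read within slides. On the left and right slides of S, medial minus lateral was -0.74 and -0.88 for Grin2a and -0.73 and -0.70 for Grin2b. On the left slide of So it was -0.86 and -0.63, and on the right slide -0.11 and -0.06. The So mouse thus showed the difference on the left only, since So10, the outermost right fraction, was low for Grin2a (-4.01) and Grin2b (-2.63). Cortex marker sums were 1.09 to 1.27 medially and 1.44 to 3.02 laterally. Oligodendrocyte sums were 212 to 285 medially and 68.1 to 182 laterally, with 4 of 4 markers called higher, and neuron sums 115 to 131 and 125 to 172, with 3 of 4 lower. Their part in the difference was not tested.

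Gria4 had the strongest variation within the sagittal plane through its outermost fractions. It was 0.10 in S1 and 0.19 in S9 but 0.79 to 1.07 in S2 to S8, and 0.07 in So2 and -0.35 in the unpaired So1 but 0.75 to 0.84 in So3 to So10. From s1 to s2 it rose by 0.87 (SE 0.16, limma adjusted p = 0.00126), where 1.79% of all probes changed. At this step slide and position cannot be told apart, since S1 and So2 lay on another slide than S2 and So3. Granule cell marker sums ran from 4.83 to 56.2 over the lateral fractions, against 37.5 to 40.5 medially, and their part was not tested. Medial minus lateral was 0.22 (0.0700), which passed with the mouse as a block (0.0315). Without S1 or without So2, the sagittal F of Gria4 and that of Grin2b no longer passed.

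**Figure D4:**
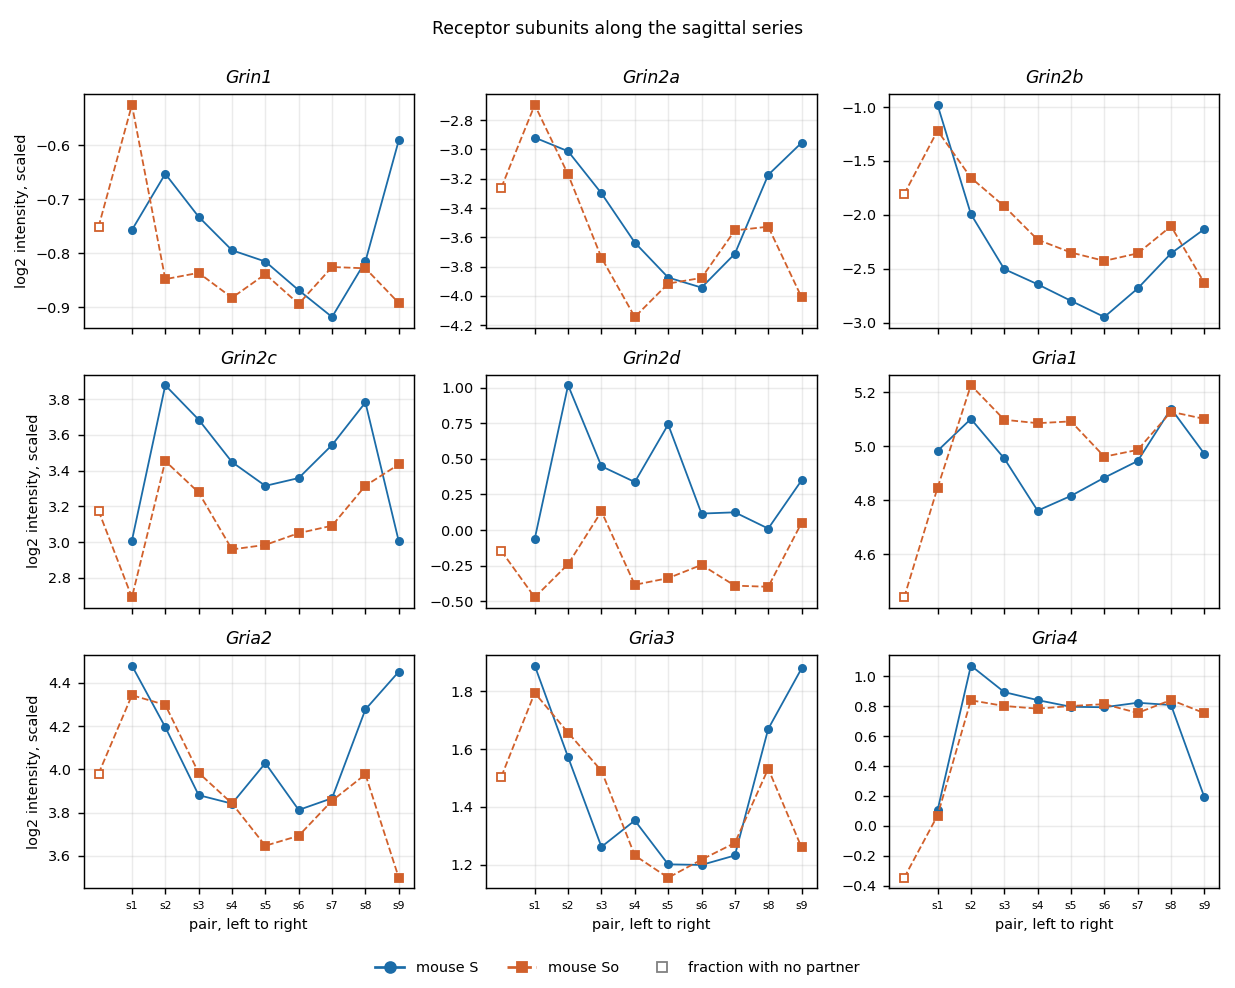
Log2 intensity of the subunits in the sagittal fractions of mice S and So, from left to right (open squares, fractions with no partner). Grin2a and Grin2b dip towards the middle fractions of S, and Gria4 is low in the outermost left fractions of both mice.

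None of the 9 subunits passed the test for right (s6 to s9) minus left (s1 to s4), against 0.0985% of all probes higher and 0.0383% lower on the right. Grin2b came nearest. It was -0.98, -1.99, -2.50 and -2.64 in S1 to S4 and -2.95, -2.68, -2.36 and -2.13 in S6 to S9, and -1.22, -1.66, -1.92 and -2.23 in So2 to So5 and -2.43, -2.36, -2.11 and -2.63 in So7 to So10. Each left fraction was higher than its mirror fraction on the right in both mice. The difference was -0.56 (SE 0.16, unadjusted p = 0.00149, limma adjusted p = 0.236), with -0.50 in S and -0.62 in So. With the mouse as a block it passed (adjusted p = 0.00430), and with the slide as a fixed term it was -0.65 (0.00461). Cortex marker sums were 1.15 to 3.02 on the left and 1.09 to 2.54 on the right. Sums of 4 hypothalamus markers were 0.199 to 20.3 on the left (median 0.267) and 0.820 to 24.9 on the right (median 5.42), and 3 of the 4 were called higher on the right. Their part was not tested.

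From top to bottom the direction was down for 5 subunits. Ventral (h5 and h6) was compared with dorsal (h1 and h2). Lower ventrally were Grin1, Grin2a, Grin2c, Gria3 and Gria4, against 5.78% of all probes, and none was higher, against 8.45%. Grin2a was -2.80, -2.82, -3.10, -3.63, -3.91 and -3.86 in H1 to H6 and -2.99, -3.23, -3.58, -3.61, -3.90 and -4.23 in Ho2 to Ho7, lower ventrally in both mice. The difference was -1.02 (SE 0.19, limma adjusted p = 3.24e-04). Gria4 was 0.58, 0.84, 0.83, 0.55, 0.16 and -0.17 in H1 to H6 and 0.86, 0.87, 0.84, 0.66, 0.37 and 0.18 in Ho2 to Ho7, differing by -0.65 (SE 0.11, 8.70e-05).

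The other 3 were smaller, with Grin1 at -0.37 (SE 0.10, limma adjusted p = 0.00743), Gria3 at -0.55 (SE 0.15, 0.0127) and Grin2c at -0.56 (SE 0.18, 0.0302). Grin2b, at -0.65 (SE 0.23, 0.0530), did not pass, but did with the mouse as a block (0.00121). Gria1 was level at -0.02 (SE 0.09, 0.972). Grin2c and Gria4, which ran opposite to Grin2a along the coronal axis, were lower ventrally as Grin2a was.

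Dorsal and ventral fractions lay on different slides in each mouse, and with the slide as a fixed term only Grin2a, at -1.28 (limma, adjusted p = 0.0381), still passed, with Gria4 at -0.82 (0.0659). On the slide of H3 to H6, H6 minus H3 was -0.76 for Grin2a and -0.99 for Gria4, and on that of Ho5 to Ho7, Ho7 minus Ho5 was -0.62 and -0.48. Among the 62 fits that left out 1 array or mouse, the call was lost in 7 for Grin2c, 5 for Gria3, 3 for Grin1 (one of them without H2), 1 for Grin2a and 0 for Gria4. Neuron marker sums were 135 to 155 dorsally and 95.8 to 113 ventrally, and cortex sums 1.76 to 3.23 and 0.974 to 1.11. Purkinje cell sums were 44.4 or more dorsally and 17.8 to 26.0 ventrally, and granule cell sums 16.4 to 49.0 and 10.8 to 20.5, with 3 of 3 markers of each called lower ventrally. Oligodendrocyte sums were 53.1 to 161 dorsally and 173 to 221 ventrally, with 4 of 4 higher. Their part was not tested.

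**Figure D5:**
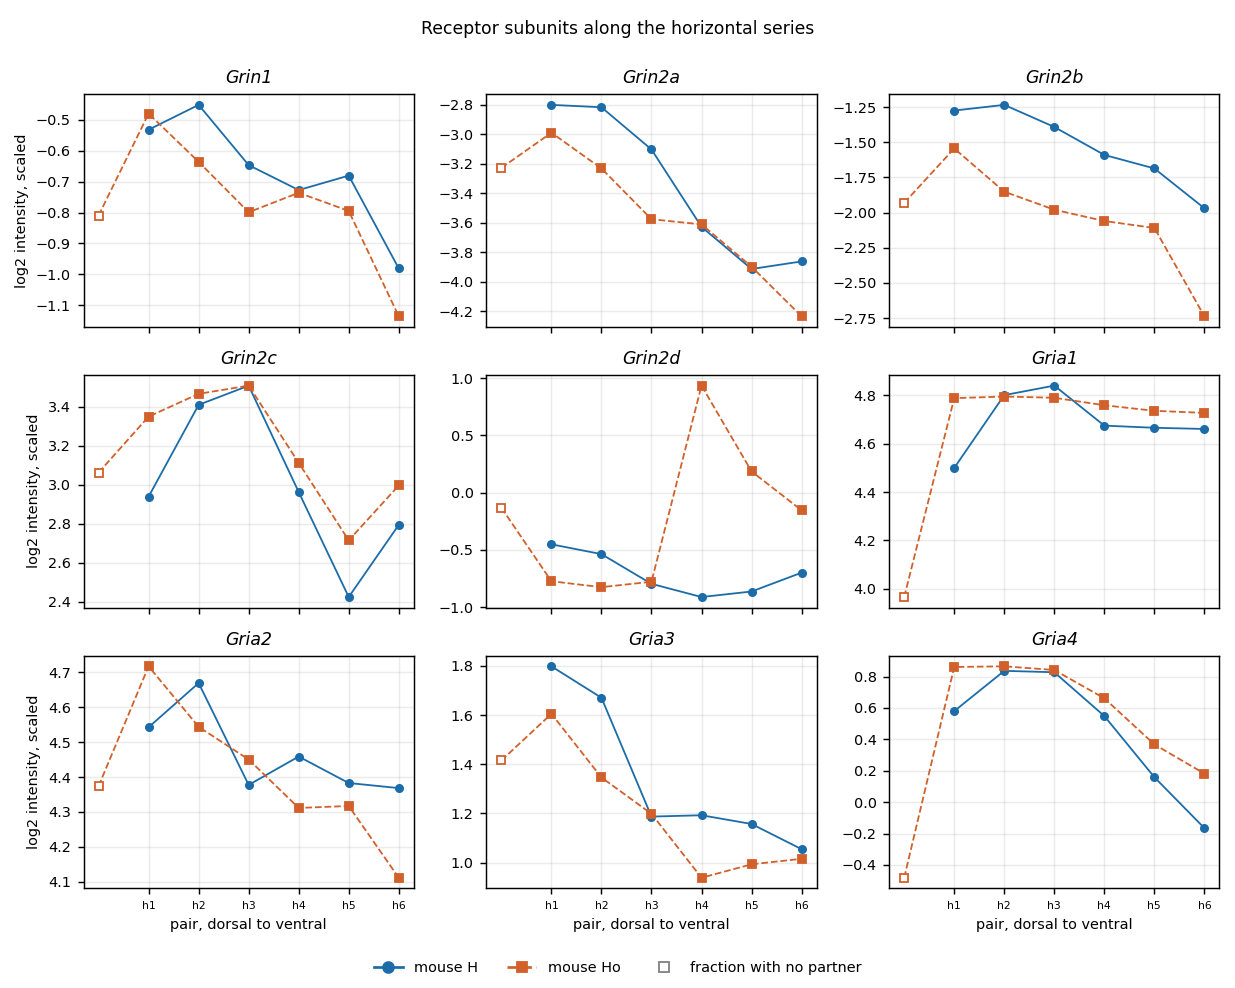
Log2 intensity of the subunits in the horizontal fractions of mice H and Ho, from top to bottom (open squares, fractions with no partner). Grin2a and Gria4 are lower in the 2 ventral than in the 2 dorsal fractions of each mouse.

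Grin2d, for GluN2D, behaved unlike the others. Its F over all positions passed (4.48, limma adjusted p = 2.19e-04), but within the coronal, horizontal and sagittal positions it did not (adjusted p = 1 in each). Its mean was -1.70 in C, -1.30 in Co, -0.71 in H, -0.22 in Ho, 0.34 in S and -0.24 in So. Plane, mouse, slide and scan day cannot be told apart in these means, and within a series it spanned up to 2.11 (Co), with 1.58 in C and 1.76 in Ho. C13, which shared a slide with H1 and H2, was -0.52, close to their -0.45 and -0.54, while its neighbour C12 was -1.59. With the slide as a fixed term the F of Grin2d did not pass (0.505), and it also failed without mouse C. Its spread within pairs, an SD of 0.51, was the largest of the 9. In Ho it ranged from -0.83 in Ho3 to 0.94 in Ho5.

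At matched positions the mice of a plane also differed. Co minus C was called for 5 of 9 subunits, against 53.5% of all probes, namely Grin1 (-0.17, limma adjusted p = 0.00114), Grin2a (0.24, 0.0247), Grin2b (0.36, 4.90e-04), Gria2 (0.23, 0.00933) and Gria3 (-0.36, 7.52e-07). So minus S was called for Grin2c (-0.31, 0.0217) and Grin2d (-0.60, 0.0202), against 30.2%. Ho minus H was called for Grin2b (-0.52, 0.00829), against 5.36%. With normexp and quantile normalization Grin2a no longer passed between Co and C (0.07, 0.215), and Grin2c did not pass between So and S with scaling to the median (0.0744) or the authors' table (0.0832). Each is 1 mouse against 1 mouse, and cutting angle, slide and, for C and S, scan day cannot be told apart from the animal. Beside a caudal difference of -2.39, the 0.36 between the mice for Grin2b is small, while for Grin1 the 2 sizes are -0.30 and -0.17.

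For 5 subunits the array held further probes, and most gave the same direction. The second probe of Grin2b followed the first with r = 0.994 over the 61 fractions and that of Gria2 with r = 0.894 (caudal minus rostral -1.58). The second probe of Gria3 gave r = 0.812 and a smaller difference of -0.51 (limma, adjusted p = 3.85e-05). The other 2 probes of Gria4 gave 2.60 (4.13e-06) and 0.92 (6.26e-06), at r = 0.644 and 0.706, but neither called the ventral decrease (the lower adjusted p was 0.176). Neither passed the F test within the sagittal (adjusted p = 1 for both) or the horizontal positions (1 and 0.511), and the dimmest gave 0.05 at the rostral end (0.915). For Gria1 the second probe had r = 0.524 and -0.03 caudally (0.832). The probes read different stretches of a transcript, and splice forms were not separated here.

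Profiles of the subunits resembled each other in 2 ways. Over the 61 fractions, which share mice, slides and scan days, Pearson's r among the 36 combinations was highest for Grin2b and Gria2 (0.90), Grin2a and Grin2b (0.88) and Grin2a and Gria3 (0.83). Grin2c and Gria4 had r = 0.75. Between these sets it was negative, from -0.75 for Gria2 and Gria4 and -0.72 for Grin2b and Gria4 to -0.15 for Grin2a and Grin2c. For Grin2b and Gria4 it was -0.94 within C, -0.86 within Co, -0.65 within S and -0.56 within So, but 0.92 within H and 0.36 within Ho. The opposition of this pair thus held in the coronal and sagittal series and not in the horizontal ones. With Grin2c it was weak in the sagittal series for some genes, at -0.06 within S for Grin2a and -0.008 within So for Gria3.

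The genes with the profiles most like each subunit were taken from 11133 genes well above background on all arrays, as a description. For Grin2b they were Tmem200a (r = 0.940), Galnt18 (0.937) and Rasl10a (0.932), and for Grin2a Epha4 (0.931), an ephrin receptor, Sidt1 (0.926) and Pgm2l1 (0.919). Gria2 was followed by Sstr4 (0.921), a somatostatin receptor, Egr1 (0.908), an activity-induced transcription factor, and Tmem121b (0.907). For Gria3 they were Slc39a10 (0.937), a zinc transporter, Prkcb (0.935), a protein kinase C, and Pcdha6 (0.917). Grin1 was closest to Celsr2 (0.911), Aak1 (0.909) and Nrbf2 (0.889).

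Grin2c was closest to Mmp24 (0.954), a membrane-bound metalloproteinase, Ptpn22 (0.895) and Stap2 (0.889), and Gria4 to Washc2 (0.960), Mindy1 (0.951) and Slc41a3 (0.946). For Grin2d the nearest were Syn1 (0.948), which encodes the vesicle protein synapsin I, Ptms (0.921) and Chrne (0.916). Since Grin2d passed the F test within no plane, these r include its differences between series, where plane, mouse, slide and scan day cannot be told apart. Gria1 had no close match, with Prpf4 (0.765), Dgkg (0.743) and Celf2 (0.731) at the top.

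Markers of some regions moved with some of the subunits over the 61 fractions. The summed cortex markers had r = 0.93 with Grin2b, 0.88 with Grin2a, 0.84 with Gria2 and 0.80 with Gria3. With Grin1 it was 0.63, with Grin2d 0.36 and with Gria1 0.02. Granule cell markers had r = 0.82 with Gria4 and 0.78 with Grin2c, and Purkinje cell markers 0.81 and 0.79. Among cell type markers, oligodendrocyte sums were 226 to 358 caudally and 117 to 197 rostrally, with 4 of 4 markers called higher caudally. Neuron sums were 86.8 to 111 and 94.2 to 149, with 1 of 4 higher and 1 lower. Over the 61 fractions neuron markers had r from -0.21 with Gria4 to 0.85 with Grin2a, with 0.71 for Gria3 and 0.68 for Grin1. Astrocyte sums were 27.9 to 45.8 and 21.2 to 38.4, with 4 of 4 higher, and had r from -0.80 with Gria2 to 0.58 with Gria4. Microglia sums were 3.64 to 8.02 and 7.37 to 11.0, with 3 of 3 lower, and had r = -0.81 with Gria4. Of all probes 29% were higher and 20.2% lower. Their part in the differences of the subunits was not tested.

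The remaining ionotropic glutamate receptor genes included wider differences than those of the members. Of 8 listed, 7 had a probe and all 7 passed the F test over the positions, as did 61.2% of all probes. In the caudal to rostral comparison 3 were higher and 2 lower, against 29% and 20.2% of all probes, with a median of 0.38 against 0.13. Grin3b, for the glycine-binding GluN3B, was 15.0-fold higher caudally (3.91, SE 0.20, limma adjusted p = 9.34e-17). It was also higher ventrally (1.94, 7.85e-06) and medially (2.25, 3.08e-09), where no NMDA member was higher. Grik5, for a kainate receptor subunit, was 2.61-fold lower (-1.38, SE 0.07, 3.74e-17).

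RNA for proteins that accompany AMPA and kainate receptors was mostly lower caudally. Of 17 auxiliary genes listed, 13 had a probe, 12 passed the F test (61.2% of all probes), and caudally 9 were lower (20.2%) and 2 higher (29%), with a median of -1.32 against 0.13 over all probes. Shisa7 was 8.59-fold lower (-3.10, SE 0.10, limma adjusted p = 2.02e-21), Cnih3 7.24-fold lower (-2.86, 5.58e-19) and Cnih2 4.67-fold lower (-2.22, 3.07e-21). Cacng3, for TARP gamma-3, which brings AMPA receptors to the synapse, was 7.03-fold lower caudally (-2.81, 6.79e-19) and was also lower in the middle, at the rostral end, ventrally and medially. Cacng2 (stargazin) passed none of the 6 zone contrasts. Medially 7 of the 13 were lower and 2 higher, against 9.09% and 10.5% of all probes.

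RNA for scaffold proteins of the postsynaptic density followed the same order. Of 19 listed, 14 had a probe, 12 passed the F test (61.2% of all probes), and caudally 12 were lower (20.2%) and 1 higher (29%), with a median of -0.97. Homer1 was 5.36-fold lower (-2.42, SE 0.11, limma adjusted p = 9.35e-18) and Dlgap3 2.56-fold lower (-1.36, 1.99e-15). The exception was Homer3, 10.6-fold higher caudally (3.40, SE 0.16, 2.37e-17) and lower ventrally by -1.54 (1.22e-05), the same signs as Gria4. Dlg2, for PSD-93, differed by -0.52 caudally (2.37e-07) and, with Homer1 and Dlgap3, passed 5 of the 6 contrasts. Medially 10 of the 14 scaffold genes were lower and none higher, against 9.09% and 10.5% of all probes.

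Genes that handle the NMDA co-agonists or edit AMPA receptor RNA included the widest caudal to rostral difference among these 4 lists. Of 6 listed, all had a probe, 4 passed the F test (61.2% of all probes), and caudally 4 were higher (29%) and 1 lower (20.2%). Dao, which degrades D-serine, was 77.8-fold higher caudally (6.28, SE 0.26, limma adjusted p = 8.32e-19). Slc6a9, the glycine transporter GlyT1, was 2.78-fold higher (1.48, 2.59e-15), and Slc7a10, a transporter of D-serine and small amino acids, 2.25-fold (1.17, 1.86e-14). Srr, the enzyme that makes D-serine, was 1.83-fold lower caudally (-0.88, 9.62e-14), the direction of Grin2a and Grin2b. Slc6a9 and Slc7a10 passed 5 of the 6 contrasts, the exception being right against left.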

How the data were processed

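Total RNA of each fraction was labelled in 1 colour and hybridized by the authors to an Agilent whole mouse genome array, read with Agilent Feature Extraction 9.1 per the labels. The deposited scanner files hold intensity, from which the processed signal, already background-corrected, was used, and 57.9 to 73.0% of probes per array were well above background. Control spots and outlier spots were left out and spots of 1 probe were averaged. The log2 of the signal was centred on each array's 75th percentile over 41174 non-control probes, and the 36558 probes in the authors' normalized intensity table were tested. That table, which the authors scaled array by array in GeneSpring GX, was an alternative (r with each array of 0.972 or more).

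The 56 paired arrays were fitted with limma 3.58.1 in R 4.3.3, with 1 mean per pair, and tests were adjusted by Benjamini-Hochberg over all detected probes of a contrast, with 0.05 as the threshold. Zones were set by fraction number, namely caudal c1 to c4, middle c5 to c8, rostral c9 to c12 and rostral end c13, with positions numbered as in C, H and S. Labels number the S fractions from 2, and they are numbered from 1 here. Steps between neighbours used the same fit. The fit was also run on simulated data whose noise was independent between arrays. Such data lack the correlation between pairs of the same mice given below, so they cannot show how the tests behave under it. Values, figures and sequence matches were computed with Python 3.11.15, numpy 2.4.6, pandas 2.3.3 and matplotlib 3.10.9.

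Deviations of pairs from their means correlated when both pairs came from the same 2 mice (median r 0.682 over 129 combinations) and not otherwise (-0.0615 over 249), so the mouse was also fitted as a block. Other alternatives were the scaling, background correction, filters, pairing by own number, other probes, slide and scan day as blocks, the ANOVA without moderation named in the methods, and each array or mouse left out.

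The members and lists were chosen with earlier results of these data known. Named were the members, for each the 3 genes with the most similar profile, and in each list the 3 with the largest F and those called in most contrasts. A result that this rule would name is not reported here. Arrays give no depth, and their number limits the precision.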

Additional observations from a re-analysis of the deposited data

Results flagged for a closer look

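Single fractions stood apart from the rest of their series in 4 of the 36 sets of 1 subunit in 1 series that could be checked, where chance gives about 1 in 20. Gria1 was 3.97 in Ho1, the top fraction of that brain, and at least 4.73 in the other 6 fractions. Gria1 was also low in So1, the outermost left fraction, at 4.44 against a next value of 4.85. Both fractions had no partner and entered no test. Grin2b was -0.98 in S1, the outermost left fraction, and -1.99 in the next highest. Grin1 was -0.53 in So2, against a next value of -0.75. S1 and So2 form the pair s1 and lay on the same slide with So1.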

How the results depend on the processing

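In the 56 fits that left out 1 array, the caudal to rostral calls of the 7 subunits were all made. Without C or Co each coronal position held 1 array, so that the spread in those fits came from the other planes alone. Such a fit cannot test whether the caudal difference repeats between coronal brains. Over all 62 fits that left out 1 array or mouse, 9 of 9 or 8 of 9 subunits passed the F test over the pairs. In these fits the number called was 8 to 8 within the coronal, 0 to 4 within the horizontal and 0 to 4 within the sagittal positions. It was 2 to 2 higher and 5 to 5 lower caudally, 1 to 3 higher and 2 to 5 lower at the rostral end, 1 to 6 lower and 0 higher ventrally, 0 to 1 higher and 1 to 4 lower medially, and 0 in the middle and between right and left. The rostral end call of Grin2c was lost in 28 of the 62.

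Within the horizontal positions 5 subunits were called with median scaling, with the authors' table and with scan day as a block, 6 with the mouse as a replicate block, 4 with the slide as a random block or with probes above background on all arrays, 1 with the slide as a fixed block and 0 with fractions paired by their own number. Within the sagittal positions it was 5 with slide or scan day as a fixed block and 0 with own-number pairing. At the rostral end 5 were lower with normexp and quantile normalization and with each of the 4 blocks, and 0 with own-number pairing, and 0 were higher with the slide as a fixed block or own-number pairing. The mouse as a replicate block, scan day as a block, the fixed slide block and normexp each gave 1 lower on the right. The replicate block and scan day also gave 1 lower in the middle. They and the filter for probes above background gave 1 higher medially. The fixed slide block left 1 higher and 2 lower caudally, and 1 lower ventrally. Own-number pairing left 1 lower ventrally and 1 lower medially. Normexp gave 4 called between So and S, and the second probes gave 2 between Ho and H. The cause was not tested.

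The direction turned for 2 values of Co minus C with other probes, to 0.25 for Gria1 (main probe -0.08) and to -0.58 for Gria4 with its dimmest probe (main 0.07). Over all other settings no called value changed sign. The design has 2 mice per plane, 1 per cutting angle, and slides follow position in the coronal and horizontal planes.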
